A study of Mus musculus with 36 samples.

Results

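Untreated mouse embryonic fibroblasts (MEF, connective tissue cells grown from embryos) whose genotype is labelled PERK -/- (PERK-null here) were compared with MEF labelled WT. The 6 libraries compared are those with the solvent DMSO alone, 3 of each genotype, chosen by the genotype, the treatment and the replicate number in the labels, out of 36 libraries in 12 groups. The other 30 libraries are of the same genotypes with thapsigargin (Tg), BtdCPU, halofuginone, BtdCPU with Tg or halofuginone with Tg. They entered the same fit, so that filter, scaling and spread were set over all 36 libraries. Their values appear here only where the difference between the genotypes was looked up again. Of 16065 genes tested, the 14460 placed on an autosome are described. Each genotype is 1 line: the labels name no parental line, clone, passage, sex, dose, exposure time or batch, and how the Perk gene was disrupted is not given in the sources used here. A difference between these groups is therefore a difference between 2 lines, and the part of PERK and the part of any other difference between the lines cannot be told apart. Nothing in the labels says that replicates are separate cultures, so p-values measure the spread between libraries within the 12 groups, which may be technical.

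PERK, encoded by Eif2ak3, is a kinase of the endoplasmic reticulum (ER) membrane that is activated by unfolded protein in the ER. It phosphorylates the translation factor eIF2 alpha, as do HRI, PKR and GCN2, which slows protein synthesis while favouring translation of ATF4, a transcription factor that induces amino acid synthesis and transport genes and CHOP. The cascade is called the integrated stress response. Fibroblasts are also known to keep the positional code of the body site they come from, written in Hox and other homeobox genes.

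The deposited estimated counts summed to 33630755 to 35087841 per WT library and 35034352 to 35894812 per PERK-null library. At least 10 counts were read for 13395 to 13772 genes in WT and 13568 to 13605 in PERK-null libraries. The first principal component of log2 CPM (counts relative to the library's TMM-scaled total) held 84.5% of the variance among the 6 libraries and separated the lines. The fibroblast label was checked with 10 markers, each of which was read above the floor of 3 counts. Their summed level ran from 16222 to 20839 CPM in WT and from 12473 to 14942 CPM in PERK-null libraries, with 7 markers called lower and 1 higher. Of 61 markers of other cell types, 27 lay at the floor in all 6 libraries, and 10 were called higher and 3 lower. The defining markers Myod1, Pax7, Sp7, Adipoq, Krt5, Krt14, Sox10, Gfap and Pou5f1 had 3 counts or fewer in all 6 libraries. Other markers of the same lists were read, at WT and PERK-null means in CPM of Runx2 (72.7 and 81.3), Tubb3 (60.4 and 51.9) and Sox9 (57.1 and 33.0), the last called lower. Called higher, with means in the same order, were Pparg (1.63 and 7.86), Csf1r (2.12 and 5.93), Krt8 (0.125 and 0.654) and Krt18 (0 and 0.816) among others. Cebpa (2.83 and 0.482), an adipocyte marker like Pparg, and Col2a1 (7.03 and 0.109), a chondrocyte marker like Sox9, were called lower. Of 5 chondrocyte markers 1 was called higher. The part of these markers in the results was not tested. Of 4 mesothelial markers 1 was above the floor, and their sum, which is that of Msln, was 12.3 to 16.4 CPM in WT and 103.4 to 121.7 CPM in PERK-null libraries. In bulk RNA, fewer cells of a type and less RNA per cell cannot be told apart.

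The lines differed across much of the transcriptome. With edgeR's quasi-likelihood test, 50.6% of autosomal genes (7317 of 14460) were called at an adjusted p under 0.05: 3621 (25.0%) were higher and 3696 (25.6%) lower in PERK-null libraries. A call with at least a 2-fold difference was made for 2993 genes (20.7%), 1283 higher (8.87%) and 1710 lower (11.8%), and the CPM of the 3 libraries of one line did not overlap those of the other for 8388 genes (58.0%). Large fitted differences leaned to the WT side, with 521 genes called at least 16-fold lower as fitted and 215 at least 16-fold higher. These counts include genes at the floor in either line, whose fitted fold change is no estimate of size. With at least 10 counts per expressing library, 252 genes were read in WT libraries only and 96 in PERK-null libraries only. How far such genes make up the lean was not tested. The median log2 difference of all autosomal genes was 0.02. Counts of list members below are read against these shares.

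**Figure D1:**
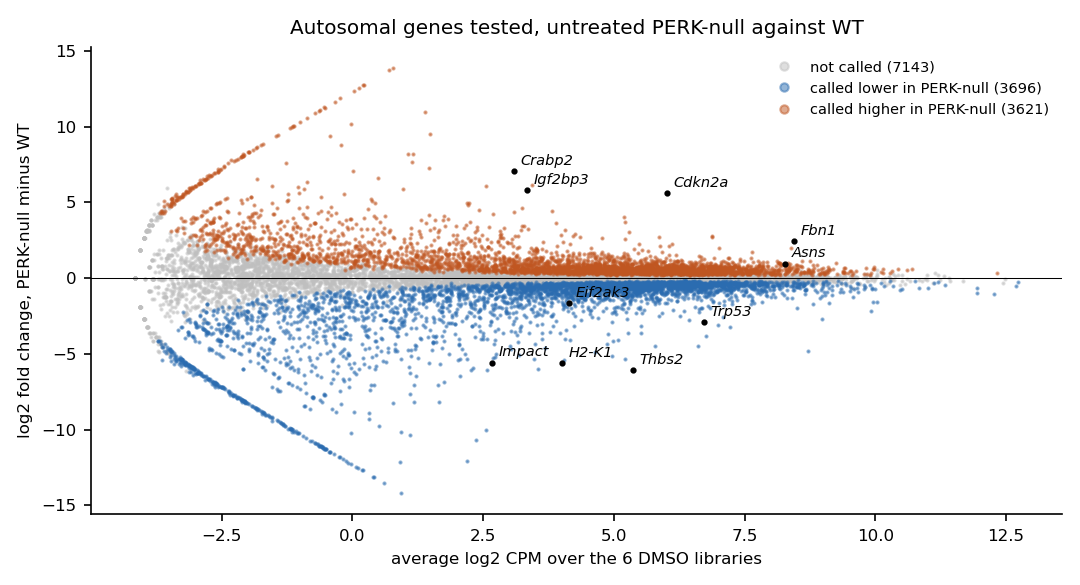
Each point is 1 of the 14460 autosomal genes tested, with its average log2 CPM over the 6 DMSO libraries on the x axis and the log2 fold change of PERK-null minus WT libraries on the y axis (3 libraries each), coloured by the call. Points on the 2 straight outer bands are genes with no or few counts in one line, whose fitted fold change depends on the prior count and is no estimate of size. Cdkn2a and Fbn1 stand out above the axis and Trp53, Thbs2 and H2-K1 below it.

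Eif2ak3 transcript was read in every PERK-null library at a lower level. Eif2ak3 stood at 30.3, 32.4 and 30.7 CPM in the WT libraries and 9.37, 9.67 and 10.8 CPM in the PERK-null libraries, a log2 difference of -1.65 (SE 0.187, edgeR adjusted p 8.69e-09). The groups did not overlap, so no library went against its genotype label, and the transcript that remained does not say whether protein is made. The lower level was not shared by all of its neighbourhood on chromosome 6. Of the 5 tested genes on each side in RefSeq order, Thnsl2 (-3.88), Mir8112 (-0.86) and Krcc1 (-0.59), all on one side within 4 genes, were called lower. Mir8112 overlaps Krcc1, and the call of Krcc1 was lost without PERK-null replicate 3 (-0.47, edgeR adjusted p 0.0506). Rpl34-ps1 (0.01), which lies between Eif2ak3 and Thnsl2, was not called, nor was any of the 5 on the other side, among them Rpia (-0.23) and Serbp1 (0.22).

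The other kinases that phosphorylate eIF2 alpha did not pass the test. Eif2ak1, the gene of HRI, which overlaps Aimp2 and Ankrd61, stood at 42.6, 41.4 and 48.4 CPM in the WT libraries and 44.9, 43.0 and 45.1 CPM in the PERK-null libraries, a difference of 0.01 (SE 0.0930, edgeR adjusted p 0.962). Eif2ak4, the gene of GCN2, differed by 0.05 (SE 0.126, edgeR adjusted p 0.796), and Eif2ak2, that of PKR, by -0.22 (SE 0.171, edgeR adjusted p 0.306). The 2 phosphatase subunits that reverse eIF2 alpha phosphorylation moved apart. Ppp1r15a stood at 19.6, 14.8 and 16.8 CPM in the WT libraries and 30.7, 35.9 and 32.3 CPM in the PERK-null libraries, without overlap, and this stress-induced subunit was higher by 0.95 (SE 0.220, edgeR adjusted p 0.000581). The constitutive subunit Ppp1r15b was lower, from 80.6 ± 4.07 CPM in WT to 62.5 ± 3.57 CPM in PERK-null libraries (SD, n = 3), with a difference of -0.37 (SE 0.0905, edgeR adjusted p 0.00115). It lies on chromosome 1, where the median gene was also lower (-0.29), and relative to that median it differed by -0.07, edgeR adjusted p 0.558. Impact, which encodes an inhibitor of GCN2 activation and is an imprinted gene, was among the 10 largest falls ranked below. That ranking holds only genes averaging 2 or more on the log2 CPM scale. Impact stood at 41.0, 51.6 and 37.1 CPM in the WT libraries and 0.956, 0.744 and 0.995 CPM in the PERK-null libraries, and the groups lay far apart, at a log2 difference of -5.58 (SE 0.222, edgeR adjusted p 1.52e-19).

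Of 6 readouts of the integrated stress response (Atf4, Asns, Psat1, Ddit3, Chac1 and Trib3), the first 4 were higher in the untreated PERK-null line. Atf4 stood at 371, 393 and 317 CPM in the WT libraries and 533, 646 and 566 CPM in the PERK-null libraries, a difference of 0.69 (SE 0.107, edgeR adjusted p 2.67e-06). Asns stood at 227, 235 and 209 CPM in the WT libraries and 457, 459 and 379.6 CPM in the PERK-null libraries, and this asparagine synthetase gene differed by 0.95 (SE 0.104, edgeR adjusted p 4.40e-09). Neither gene's groups overlapped. Psat1, of serine synthesis, was higher by 0.88 (SE 0.112, edgeR adjusted p 8.88e-08) and Ddit3, the gene of CHOP, by 0.61 (SE 0.214, edgeR adjusted p 0.0185). The call of Ddit3 was lost without WT replicate 3 (0.47, edgeR adjusted p 0.108) or PERK-null replicate 1 (0.56, edgeR adjusted p 0.0590), and Ddit3 overlaps Mars and Mbd6, whose reads it can include. Chac1 (0.44, SE 0.216, edgeR adjusted p 0.0887) and Trib3 (0.19, SE 0.280, edgeR adjusted p 0.616) were not called, and their groups overlapped. WT replicates 2 and 3 held the highest and lowest Trib3 level of all 6 libraries, 18.9 and 6.62 CPM, and without WT replicate 2 Chac1 was called (0.83, edgeR adjusted p 0.00213). Part of the called genes sit on chromosomes with a shifted median: Psat1 and Slc3a2 on chromosome 19 (median 0.46) and Asns on chromosome 6 (0.32). Relative to those medians Psat1 differed by 0.41, Slc3a2 by 0.55 and Asns by 0.62, each still called.

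Among ATF4 and CHOP target genes as a list, 16 of 52 were called higher and 8 lower, against 25.0% and 25.6% of all autosomal genes, and the median was 0.20 against 0.02. The higher genes included Stc2 (1.93), Atf3 (1.18), Slc3a2 (1.01), Aldh18a1 (0.79), Got1 (0.83), Sars (0.78) and Mthfd2 (0.55), which cover a secreted glycoprotein, a transcription factor, amino acid transport, proline and aspartate metabolism, seryl-tRNA charging and mitochondrial folate metabolism. The lower genes were led by Vldlr (-2.88), Ddit4 (-1.31), Sesn2 (-1.30) and Atf5 (-1.28): a lipoprotein receptor, a pair of mTORC1 inhibitors and a transcription factor of the mitochondrial stress response. Stc2 stood at 5.63, 5.85 and 7.58 CPM in the WT libraries and 21.6, 26.2 and 24.6 CPM in the PERK-null libraries. Vldlr stood at 27.3, 32.6 and 26.2 CPM in the WT libraries and 3.74, 5.15 and 2.82 CPM in the PERK-null libraries. Both were clear of overlap. Fgf21, Gdf15 and Adm2, the secreted targets, were read at under 1 CPM in both lines and not called.

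ER folding and degradation genes gave no common direction: 5 of 30 were called higher and 8 lower, with a median of -0.01 (from -0.095 without PERK-null replicate 3 to -0.0025 without WT replicate 2). The main ER chaperone gene Hspa5, which overlaps Rabepk, was not called. Hspa5 stood at 1423, 1604 and 1143 CPM in the WT libraries and 1494, 1670.1 and 1539.7 CPM in the PERK-null libraries, a difference of 0.17 (SE 0.141, edgeR adjusted p 0.318), and the groups overlapped. Dnajb9, an XBP1 target, did not pass either (0.08, SE 0.161, edgeR adjusted p 0.727). Called higher were Creld2 (0.75), Calr (0.59), Syvn1 (0.50), Edem1 (0.39) and Sec61a1 (0.37). Called lower were Xbp1 (-0.84), Dnajb2 (-0.78) and Manf (-0.50) with 5 smaller differences. Xbp1 stood at 108, 139 and 81.3 CPM in the WT libraries and 58.3, 65.8 and 59.97 CPM in the PERK-null libraries, without overlap. Relative to their chromosomes' medians Manf (-0.05) and Syvn1 (0.04) were no longer called.

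The positional code of the lines was different in kind. All 25 Hox genes that passed the filter were read in 1 line only, where this means 3 counts or fewer in every library of the other. The 17 genes read in WT libraries belong to the HoxA, HoxB and HoxD clusters, such as Hoxa2, Hoxa3, Hoxa7, Hoxb2, Hoxb4, Hoxd8 and Hoxd9. The 8 HoxC genes (Hoxc4, Hoxc6 and Hoxc8 to Hoxc13) were read in PERK-null libraries. Hoxd8 stood at 22.6, 25.9 and 21.4 CPM in the WT libraries and 0 CPM in each PERK-null library, at least 285-fold lower against a floor of 3 counts per library. Hoxa2 stood at 14.4, 15.7 and 14.4 CPM in the WT libraries and 0 CPM in each PERK-null library, at least 181-fold lower. Hoxc12 stood at 0 CPM in each WT library and 25.2, 19.3 and 28.4 CPM in the PERK-null libraries, at least 277-fold higher, and Hoxc11 stood at 0 CPM in each WT library and 18.1, 16.7 and 20.4 CPM in the PERK-null libraries, at least 209.8-fold higher. No library of either line departed from its group. Hoxb6, Hoxb9, Hoxc8 and Hoxd3 were the lowest of the set, at mean levels of 0.310, 0.181, 0.372 and 0.258 CPM in the line that expressed them. They lay closest to the floor, and no lowest count was set here for the line where a gene was read. All 25 were called, as the filter on low counts fixed for genes that passed it only through the line where they are read, and nothing is read from that count; 14 of the 39 Hox genes listed did not pass. The list's median of -7.22 as fitted and -3.54 with floor genes at their bound mixes genes at the floor in one line or the other.

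**Figure D2:**
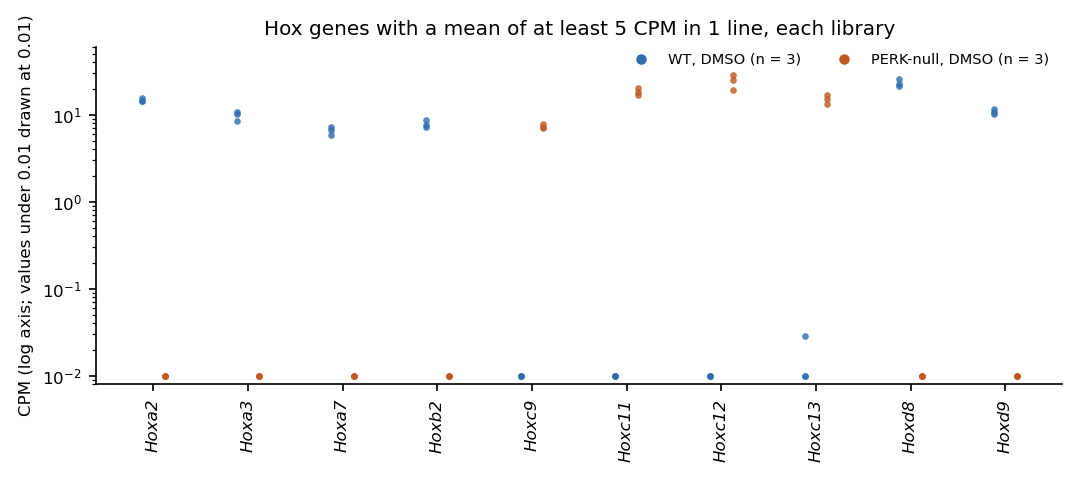
The 10 Hox genes with a mean of at least 5 CPM in 1 of the lines are on the x axis and their CPM on a log y axis, with 1 point per library (3 WT in blue, 3 PERK-null in orange) and values under 0.01 drawn at 0.01. HoxA, HoxB and HoxD points lie high only for WT libraries and HoxC points only for PERK-null libraries, such as Hoxc12 at 19.3 to 28.4 CPM.

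The split ran along the clusters. In RefSeq gene order, Hoxb3, Hoxb4 and Hoxb2 were 3 tested neighbours in a row read in WT libraries only. In PERK-null libraries Hoxc13, Hoxc12, the long noncoding RNA Hotair, Hoxc11, Hoxc10, Hoxc9 and Gm36878 formed a row of 7, and Hoxc6, Hoxc4 and Gm30528 a row of 3. Antisense transcripts lie among these genes, and whether counting used strand is not given in the sources used here.

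Other transcription factors of position and mesenchyme differed in both directions: 25 of 63 were called higher and 24 lower, and 11 were read in 1 line only, with a list median of 0.04 (from 0.10 without PERK-null replicate 3 to 0.22 without WT replicate 3). Six2 stood at 0 CPM in each WT library and 55.9, 47.2 and 52.0 CPM in the PERK-null libraries, at least 589.9-fold higher; it encodes a homeodomain factor of kidney and craniofacial mesenchyme. Tfap2b stood at 0 CPM in each WT library and 20.3, 20.3 and 22.7 CPM in the PERK-null libraries, at least 241-fold higher. Lhx8 stood at 0.114, 0 and 0 CPM in the WT libraries and 83.5, 79.1 and 92.6 CPM in the PERK-null libraries, so that the LIM homeobox gene of jaw mesenchyme had 4 counts in WT replicate 1 and 0 in the other two. Eya2, a transcriptional coactivator, and Alx1, of frontonasal mesenchyme, were read in PERK-null libraries only, at means of 2.45 and 5.25 CPM. Pax9 stood at a mean of 0.225 CPM in WT and 13.5 CPM in PERK-null libraries, and Tbx3 (1.43) and Dlx5 (3.92) were also higher.

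On the WT side, Irx2 stood at 21.7, 23.9 and 22.5 CPM in the WT libraries and 0 CPM in each PERK-null library, at least 278-fold lower. Pou3f3 stood at 58.1, 73.3 and 63.1 CPM in the WT libraries and 0 CPM in each PERK-null library, at least 793-fold lower, the strongest bound among genes of this kind. Gata6 stood at 7.34, 8.63 and 7.18 CPM in the WT libraries and 0, 0.165 and 0.134 CPM in the PERK-null libraries, a difference of -6.22 (SE 0.419, edgeR adjusted p 7.41e-14). Ebf3, Foxl2, Foxd1 and Msx2 were read in WT libraries only, and Meis1, a Hox cofactor, was lower (-4.12). The general mesenchymal factors Prrx1 (0.27), Zeb1 (-0.04), Zeb2 (-0.23) and Nr2f1 (-0.08) were not called, while Twist1 (-1.06), Twist2 (-1.38) and Snai1 (-0.87) were lower and Snai2 (0.50) was higher, the last not without WT replicate 1 or 2 or PERK-null replicate 1 or 2 (smallest difference 0.43, edgeR adjusted p 0.114).

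Over all autosomal genes, 252 were read in WT libraries only and 96 in PERK-null libraries only, with at least 10 counts in each library of the expressing line. With at least 30 counts these were 151 and 48, and with 0 counts in the other line 143 and 49. After Pou3f3, the highest mean CPM (not corrected for length) on the WT side belonged to Meg3, Rgs16, Rftn1 and Psmb8. Rgs16 stood at 59.7, 38.3 and 61.7 CPM in the WT libraries and 0, 0.0551 and 0.0538 CPM in the PERK-null libraries; it encodes a regulator of G protein signalling. Rftn1 stood at 39.8, 35.8 and 49.6 CPM in the WT libraries and 0 CPM in each PERK-null library, the gene of a lipid raft protein. In PERK-null libraries Six2 was followed by Ifi202b, Hoxc12, AI606473 and Tfap2b. Ifi202b stood at 0 CPM in each WT library and 48.0, 60.1 and 36.8 CPM in the PERK-null libraries; it is an interferon-inducible gene of a family of close paralogs, so its count is uncertain. AI606473 stood at 0 CPM in each WT library and 24.4, 23.7 and 23.3 CPM in the PERK-null libraries, at least 272-fold higher.

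Imprinted genes, which are expressed from the maternal or the paternal allele, held some of the widest gaps. Of 29 tested, 13 were called lower and 7 higher, with a median of -0.20. With 1 library left out, which also changes which genes pass the filter, the median ran from -0.45 without WT replicate 3 to -0.29 without WT replicate 1. The Dlk1-Meg3 domain on chromosome 12 was nearly silent in PERK-null libraries on both its paternally expressed side (Dlk1, a Notch-like ligand) and its maternally expressed side (the noncoding Meg3 and Rian). Dlk1 stood at 191, 190.0 and 372 CPM in the WT libraries and 0, 0 and 0.161 CPM in the PERK-null libraries; only PERK-null replicate 3 had any count. Meg3 stood at 42.2, 78.3 and 50.1 CPM in the WT libraries and 0, 0.0276 and 0 CPM in the PERK-null libraries. Rian stood at 144, 236 and 141 CPM in the WT libraries and 0.0819, 0.110 and 0.108 CPM in the PERK-null libraries, a difference of -10.71 (SE 0.329, edgeR adjusted p 3.12e-22). Mirg followed with -4.05, while Rtl1 (0.07) and Dio3 (0.94) of the same domain had a mean under 1 CPM in both lines and were not called. Meg3 and Rian overlap Rtl1 in the annotation.

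Grb10, Ddc, Peg3, Nespas and Ppp1r9a were read in WT libraries only, and Asb4 was lower (-7.04). Grb10 stood at 9.26, 10.5 and 5.82 CPM in the WT libraries and 0, 0.0551 and 0 CPM in the PERK-null libraries, at least 104-fold lower; it encodes an adaptor that restrains insulin signalling. The paternally expressed Mest went the other way. Mest stood at 0.0857, 0.112 and 0.155 CPM in the WT libraries and 11.3, 12.4 and 10.7 CPM in the PERK-null libraries, a difference of 6.58 (SE 0.292, edgeR adjusted p 2.43e-18), without overlap, and its neighbour Copg2, which overlaps it, was not called (-0.03, SE 0.0844, edgeR adjusted p 0.826). Peg10 stood at 31.6, 29.8 and 34.9 CPM in the WT libraries and 144, 114 and 161 CPM in the PERK-null libraries, and this retrotransposon-derived gene was higher by 2.12 (SE 0.128, edgeR adjusted p 5.55e-15). H19 (1.40), Airn (1.49) and Kcnq1ot1 (1.77), noncoding RNAs of imprinted domains, were higher too, whereas Igf2r (-0.05), Gnas (0.10) and Sgce (-0.05) were not called. H19 lost its call without WT replicate 1 (1.19, edgeR adjusted p 0.0637).

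Genes of the p53 and Cdkn2a growth-arrest pathways separated the lines in opposite directions. Trp53 stood at 284, 252 and 336 CPM in the WT libraries and 40.8, 36.2 and 39.3 CPM in the PERK-null libraries, a difference of -2.91 (SE 0.0950, edgeR adjusted p 1.49e-21). Cdkn2a, the gene of INK4A and ARF, stood at 8.29, 10.2 and 9.29 CPM in the WT libraries and 473, 464 and 433 CPM in the PERK-null libraries, a difference of 5.62 (SE 0.138, edgeR adjusted p 1.65e-24). Every PERK-null library was below every WT library for the first and above it for the second. The p53 targets Cdkn1a and Ccng1 were lower too. Cdkn1a, the gene of the p21 cell cycle inhibitor, stood at 56.1, 52.1 and 55.6 CPM in the WT libraries and 4.97, 5.10 and 3.39 CPM in the PERK-null libraries, a difference of -3.60 (SE 0.158, edgeR adjusted p 1.61e-18). Ccng1, the gene of cyclin G, stood at 225, 246 and 200.5 CPM in the WT libraries and 35.5, 35.9 and 29.2 CPM in the PERK-null libraries, a difference of -2.74 (SE 0.154, edgeR adjusted p 9.59e-16). The calls of the list as a whole were 22 lower and 4 higher of 31, with a median of -0.57. Also lower were Trp53inp1 (-4.81), Pmaip1 (-2.66), Ephx1 (-2.15), Phlda3 (-1.97), Mdm2 (-1.34), Btg2 (-1.33) and Zmat3 (-1.03). The genes higher were Cdkn2a, its neighbour Mtap (0.63), Sesn1 (0.54) and Fas (0.84), and Fas lost its call without WT replicate 2 or 3 or PERK-null replicate 3 (smallest difference 0.62, edgeR adjusted p 0.158). Sesn1 lost its call without WT replicate 3 (0.42, edgeR adjusted p 0.0779). Cdkn2b, beside Cdkn2a, was not called (0.02, SE 0.154, edgeR adjusted p 0.930).

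DNA replication and mitosis genes leaned the other way with small differences: 18 of 49 were called higher and 1 lower, and the median was 0.24. Ccnd2 stood at 37.9, 34.4 and 37.8 CPM in the WT libraries and 80.01, 75.6 and 79.8 CPM in the PERK-null libraries, without overlap, and this D-type cyclin gene was higher by 1.10 (SE 0.116, edgeR adjusted p 2.12e-09). Ccnb1 stood at 42.6, 31.9 and 24.2 CPM in the WT libraries and 70.8, 66.2 and 63.2 CPM in the PERK-null libraries, a difference of 1.019 (SE 0.157, edgeR adjusted p 2.28e-06) for cyclin B1. Ube2c (0.87), Aurka (0.83), Ccna2 (0.80) and Cdt1 (0.74) were higher. Mki67 (-0.10), Pcna (0.02), Top2a (-0.16) and Cdk1 (-0.36) were not called. Mcm6 was the 1 gene lower (-0.46), and relative to the median of chromosome 1 it differed by -0.16, edgeR adjusted p 0.212.

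**Figure D3:**
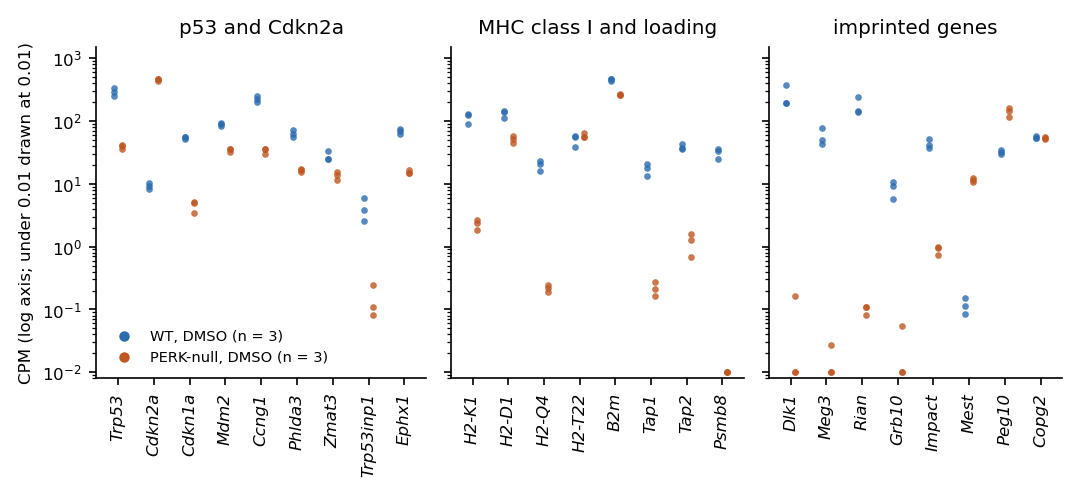
CPM per library on a log y axis (3 WT in blue, 3 PERK-null in orange, values under 0.01 drawn at 0.01) for genes of the p53 and Cdkn2a pathways, MHC class I genes with antigen loading genes, and imprinted genes. Cdkn2a, Mest and Peg10 are the panels' genes with higher PERK-null points, H2-T22 and Copg2 overlap between the lines, and the other genes shown have lower PERK-null points.

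MHC class I molecules present peptides at the cell surface, TAP1 and TAP2 carry the peptides into the ER, and immunoproteasome subunits such as PSMB8 help make them. Interferon induces these genes through response elements that STAT and IRF factors bind. To show what such genes carry near their start, the 250 bases before the RefSeq start (build GRCm38.p6, the deposited counts being on GRCm39) are given for the 2 genes of each list with the lowest log2 difference among those called lower that hold there the letters GAAA, any 2 bases and GAAA again, the core of such elements. The stretches are Ifi205 chr1:174031756-174032005 on the minus strand, Bst2 chr8:71537473-71537722 on the minus strand, H2-T23 chr17:36032702-36032951 on the minus strand and B2m chr2:122147437-122147686 on the plus strand. They run 5′ to 3′ in the direction of the gene, and capitals mark each match, on either strand, with overlapping matches joined.
Ifi205: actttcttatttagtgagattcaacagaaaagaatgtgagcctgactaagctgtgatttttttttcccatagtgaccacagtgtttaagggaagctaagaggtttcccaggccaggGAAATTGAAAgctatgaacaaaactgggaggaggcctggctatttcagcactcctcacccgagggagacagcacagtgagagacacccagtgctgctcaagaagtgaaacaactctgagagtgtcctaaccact
Bst2: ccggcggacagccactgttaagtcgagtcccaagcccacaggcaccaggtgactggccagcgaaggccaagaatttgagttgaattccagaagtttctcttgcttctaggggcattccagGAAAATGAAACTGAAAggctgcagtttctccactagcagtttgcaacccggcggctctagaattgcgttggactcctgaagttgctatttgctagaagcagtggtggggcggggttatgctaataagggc
H2-T23: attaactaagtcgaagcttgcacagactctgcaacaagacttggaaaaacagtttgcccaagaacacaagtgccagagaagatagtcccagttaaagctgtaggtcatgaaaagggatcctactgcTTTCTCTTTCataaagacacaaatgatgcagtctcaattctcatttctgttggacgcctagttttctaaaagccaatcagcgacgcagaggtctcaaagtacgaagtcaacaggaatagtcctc
B2m: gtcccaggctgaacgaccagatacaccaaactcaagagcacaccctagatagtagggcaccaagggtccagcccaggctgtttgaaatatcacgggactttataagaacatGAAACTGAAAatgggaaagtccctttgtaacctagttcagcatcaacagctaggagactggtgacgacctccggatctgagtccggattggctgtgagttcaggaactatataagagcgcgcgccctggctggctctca
The motif was chosen after the values were seen. It was found in 17 of 37 interferon-stimulated and 3 of 12 MHC class I genes with a promoter entry, and in 3.46% of all 27025 genes with one. Among interferon-stimulated genes 6 of 19 called lower held it, and 11 of 18 not called lower did. A match describes the letters only.

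Most MHC class I genes were lower in PERK-null libraries: 13 of 15 were called lower, none higher, and the median was -2.73. H2-K1 stood at 125, 129.6 and 88.5 CPM in the WT libraries and 2.35, 1.85 and 2.69 CPM in the PERK-null libraries, a difference of -5.64 (SE 0.193, edgeR adjusted p 5.14e-21) for this classical class I heavy chain. H2-D1, the other classical heavy chain, stood at 144, 138 and 111 CPM in the WT libraries and 51.6, 56.9 and 44.1 CPM in the PERK-null libraries, with no overlap and a smaller difference of -1.36 (SE 0.124, edgeR adjusted p 8.23e-11). Tap2 stood at 35.9, 43.0 and 36.5 CPM in the WT libraries and 0.683, 1.30 and 1.61 CPM in the PERK-null libraries, so that the mean was 3.11% of that in WT (edgeR adjusted p 4.70e-15). B2m, the shared light chain, was lower, with a difference of -0.79 (SE 0.0992, edgeR adjusted p 5.73e-08), and its 3 PERK-null libraries lay under the 3 WT libraries. Further falls ranged to -6.48 for H2-Q4. H2-T22 (0.19) and H2-M3 (-0.11) were the 2 not called. Genes of the H2-Q and H2-T families are near-identical copies, so how their reads were shared out is uncertain. All but B2m lie on chromosome 17, whose median was 0.23.

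Interferon-stimulated genes were lower in part: 2 of 47 were called higher and 24 lower, and 21 were not called, with a median of -1.41 as fitted and -1.34 with floor genes at their bound (from -1.84 without WT replicate 3 to -0.93 without WT replicate 1, as fitted). Psmb8 stood at 33.1, 35.98 and 25.2 CPM in the WT libraries and 0 CPM in each PERK-null library, at least 384-fold lower. Trim25, the gene of a ubiquitin ligase of RNA sensing, stood at 38.8, 34.5 and 37.5 CPM in the WT libraries and 0.492, 0.441 and 0.323 CPM in the PERK-null libraries, a difference of -6.45 (SE 0.264, edgeR adjusted p 3.07e-19). Tap1 stood at 17.9, 20.4 and 13.1 CPM in the WT libraries and 0.273, 0.165 and 0.215 CPM in the PERK-null libraries, without overlap, a difference of -6.27 (SE 0.423, edgeR adjusted p 7.84e-14). Parp14 (-3.90), Nlrc5 (-4.29), which encodes the activator of class I transcription, Bst2 (-3.01), Usp18 (-2.71), Ifih1 (-1.72) and Stat2 (-0.84) were lower. Usp18 lost its call without WT replicate 1 or 2 or PERK-null replicate 3 (smallest difference -2.16, edgeR adjusted p 0.107). Of the genes commonly used to read an interferon response, these were not called: Isg15 (1.01, SE 0.477, edgeR adjusted p 0.0776), Ifit1 (0.74, SE 0.669, edgeR adjusted p 0.381) and Ifit2 (0.01, SE 0.163, edgeR adjusted p 0.975). Oasl1 (2.73) and Ifi203 (1.92) were higher, and Ifi203, Ifi204 and Ifi205 are close paralogs with uncertain counts.

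The extracellular matrix programme of the PERK-null line was lower in most of its genes. Of collagen chains, 3 of 24 were called higher and 14 lower, with a median of -0.82 as fitted and -0.93 with floor genes at their bound. Col7a1, the chain of anchoring fibrils, stood at 231, 238 and 247 CPM in the WT libraries and 4.94, 6.56 and 5.76 CPM in the PERK-null libraries, a difference of -5.37 (SE 0.177, edgeR adjusted p 1.74e-21). Col1a1 stood at 5293, 4568 and 6838 CPM in the WT libraries and 2979, 2291 and 3224 CPM in the PERK-null libraries, a difference of -0.98 (SE 0.176, edgeR adjusted p 2.50e-05), while Col1a2, the other chain of type I collagen, was not called (-0.05, SE 0.115, edgeR adjusted p 0.770), and its groups overlapped. Col3a1 (-1.55), Col4a1 (-0.70), Col4a2 (-1.10), Col6a1 (-1.22), Col6a2 (-1.11), Col12a1 (-0.997) and Col16a1 (-1.67) were lower. Col18a1 (0.50), Col11a1 (0.62) and Col15a1 (0.80) were higher. Leaving out PERK-null replicate 3 ended the calls of Col11a1 (0.45, edgeR adjusted p 0.0711) and Col15a1 (0.67, edgeR adjusted p 0.145); for Col15a1 so did leaving out WT replicate 2 or 3 or PERK-null replicate 1, and the call was not made by DESeq2. Col12a1 lost its call without WT replicate 3 (-0.62, edgeR adjusted p 0.232) or PERK-null replicate 1 or 2.

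Enzymes that hydroxylate, fold and crosslink collagen were lower in nearly the whole list: 2 of 23 were called higher and 19 lower, with a median of -0.65. Loxl2, a lysyl oxidase, stood at 132, 123 and 147 CPM in the WT libraries and 12.6, 10.9 and 9.84 CPM in the PERK-null libraries, a difference of -3.60 (SE 0.136, edgeR adjusted p 4.63e-20). Adamts14, a procollagen peptidase, stood at 75.4, 74.3 and 73.6 CPM in the WT libraries and 14.7, 13.9 and 14.5 CPM in the PERK-null libraries, a difference of -2.37 (SE 0.136, edgeR adjusted p 1.34e-15). The prolyl hydroxylases P3h1 (-1.04), P3h2 (-1.33), P3h3 (-1.45) and P4ha3 (-1.65), the chaperone gene Serpinh1 (-0.65) and the oxidases Loxl1 (-1.52) and Loxl3 (-1.45) were lower, whereas Lox (-0.10) was not called. P4ha2 (0.31) and Adamts2 (0.60) were the 2 higher. Neither call was kept with each library left out in turn. That of Adamts2 was lost without WT replicate 3 (0.48, edgeR adjusted p 0.0703). That of P4ha2 was lost without WT replicate 1 or 2 or PERK-null replicate 3, its difference staying between 0.26 and 0.36.

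Of other matrix glycoproteins and proteoglycans, 9 of 43 were called higher and 29 lower, with a median of -1.21 as fitted and -1.08 with floor genes at their bound. Thbs2, thrombospondin 2, stood at 314, 381 and 327 CPM in the WT libraries and 5.76, 5.68 and 3.63 CPM in the PERK-null libraries, a difference of -6.08 (SE 0.211, edgeR adjusted p 6.56e-21), while Thbs1 was not called (-0.03, SE 0.305, edgeR adjusted p 0.956). Tnc, tenascin C, stood at 1233, 1084 and 1635 CPM in the WT libraries and 204, 175 and 216 CPM in the PERK-null libraries, a difference of -2.73 (SE 0.192, edgeR adjusted p 2.16e-13). Fn1 (-1.06), Nid1 (-2.18), Ltbp2 (-3.83), Mfap2 (-3.82), Fbln5 (-2.06), Lum (-5.80), Igfbp4 (-4.38) and Igfbp3 (-8.21) were lower. Fbn1, fibrillin 1, stood at 150.2, 122 and 179 CPM in the WT libraries and 850.5, 683 and 937 CPM in the PERK-null libraries, and was higher without overlap by 2.45 (SE 0.151, edgeR adjusted p 8.75e-15), together with Fbn2 (0.92), Lama5 (3.06), Lama2 (1.60) and Tnxb (2.20).

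Matrix proteases and their inhibitors were mixed: 4 of 24 were called higher and 11 lower, with a median of -0.35 (from -0.52 without WT replicate 2 to -0.10 without WT replicate 3). Mmp13, collagenase 3, stood at 3.26, 2.39 and 3.19 CPM in the WT libraries and 31.2, 34.2 and 31.3 CPM in the PERK-null libraries, a difference of 3.45 (SE 0.471, edgeR adjusted p 2.91e-07). Stromelysin Mmp3 was higher by 1.83 (SE 0.233, edgeR adjusted p 7.41e-08), and Timp3, a protease inhibitor, stood at 146, 115 and 184 CPM in the WT libraries and 30.2, 32.3 and 38.4 CPM in the PERK-null libraries, a difference of -2.14 (SE 0.218, edgeR adjusted p 9.07e-10). Adamts5 (0.76) lost its call without PERK-null replicate 3 (0.62, edgeR adjusted p 0.0833). Proteases were among the 11 lower genes too, such as Mmp19 (-1.95 to -1.73 with 1 library left out). In TGF-beta signalling and contractile genes, 6 of 25 were called higher and 8 lower, with a median of -0.29 (from -0.45 without WT replicate 2 to -0.10 without WT replicate 3). The ligand Tgfb3 (-1.01), the receptors Tgfbr1 (-0.97), Tgfbr2 (-0.52) and Tgfbr3 (-0.38) and Smad3 (-0.58) were lower. Without WT replicate 3 the calls of Tgfbr2 (-0.39, edgeR adjusted p 0.161), Tgfbr3 (-0.27, edgeR adjusted p 0.0904) and Smad3 (-0.32, edgeR adjusted p 0.0784) were lost, as were those of Tgfbr2 without PERK-null replicate 1 or 2 and of Tgfbr3 without PERK-null replicate 2. Nov, a CCN family protein also called CCN3, stood at 4.51, 4.41 and 3.65 CPM in the WT libraries and 50.5, 46.8 and 59.0 CPM in the PERK-null libraries, a difference of 3.63 (SE 0.169, edgeR adjusted p 7.51e-18). Smooth muscle genes Actg2 (2.27), Cnn1 (2.16) and Myl9 (1.35) were higher, while Acta2 (0.30, SE 0.246, edgeR adjusted p 0.321) and Tagln (-0.29, SE 0.271, edgeR adjusted p 0.400) did not pass. Tpm1, a contractile gene of the same list, was lower (-0.65, edgeR adjusted p 6.84e-07). The summed level of 6 smooth muscle markers overlapped between the lines, 1736 to 3499 CPM in WT and 2606 to 3602 CPM in PERK-null libraries.

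Among growth factor, Wnt, BMP and Hedgehog pathway genes 15 of 68 were called higher and 30 lower, with a median of -0.29 (from -0.31 without PERK-null replicate 2 to -0.19 without WT replicate 1). Pdgfra, a receptor for platelet-derived growth factors, stood at 310.1, 317 and 369 CPM in the WT libraries and 65.0, 57.9 and 45.0 CPM in the PERK-null libraries, a difference of -2.57 (SE 0.183, edgeR adjusted p 2.69e-13). Fgfr1 (-1.32), Egfr (-1.95), Vegfc (-3.13), Sfrp1 (-6.79), Id4 (-4.05) and Notch3 (-4.71) were lower. Met (0.95), Fgfr2 (1.53), Fgf10 (2.55), Bmp4 (5.52) and Gdnf (2.17) were higher, as were the pathway readouts Axin2 (1.41) and Lef1 (1.75) of Wnt and Gli1 (1.77) and Ptch1 (0.80) of Hedgehog signalling. Axin2 lost its call without WT replicate 1 (1.11, edgeR adjusted p 0.0514). Among adhesion receptors and cadherins 14 of 64 were called higher and 31 lower, with a median of -0.27. Sema3c, a guidance ligand, stood at 7.60, 7.62 and 12.6 CPM in the WT libraries and 149, 155 and 139.8 CPM in the PERK-null libraries, a difference of 4.002 (SE 0.249, edgeR adjusted p 1.11e-14). Cdh3, P-cadherin, stood at 34.9, 33.9 and 41.5 CPM in the WT libraries and 0.519, 0.606 and 0.699 CPM in the PERK-null libraries, a difference of -5.91 (SE 0.275, edgeR adjusted p 7.68e-18). Cdh6 was read in WT libraries only (13.1, 12.5 and 24.6 CPM), Lgals3 was higher (2.75), and Cdh11 (-0.22) and Cd44 (0.14) were not called.

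Chemokines, cytokines and complement genes were called 11 higher and 11 lower of 36, with a median of 0.17 as fitted and 0.00 with floor genes at their bound (from -0.0029 without PERK-null replicate 2 to 0.24 without WT replicate 3, as fitted). Ccl2, a monocyte attractant, stood at 334, 318 and 149 CPM in the WT libraries and 84.8, 111 and 86.3 CPM in the PERK-null libraries, a difference of -1.51 (SE 0.309, edgeR adjusted p 0.000138), and WT replicate 3 was the lowest of the WT libraries. Ccl7 was lower, with a difference of -2.67 (SE 0.297, edgeR adjusted p 5.95e-09). Cxcl5, a neutrophil attractant, stood at 1.14, 1.52 and 0.217 CPM in the WT libraries and 22.9, 32.9 and 26.0 CPM in the PERK-null libraries, a difference of 4.80 (SE 0.784, edgeR adjusted p 7.51e-06). Cxcl1 (2.01), Cxcl10 (4.13), Ccl5 (2.85) and C3 (1.76) were higher, and the IL-33 receptor gene Il1rl1 (-1.74) and Cxcl12 (-0.80) lower. Macrophage and leukocyte markers summed to 4.13 to 4.63 CPM in WT and 6.86 to 9.74 CPM in PERK-null libraries, with Lyz2 at the floor, and their part in these values was not tested.

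Glycolysis and glucose uptake genes were mostly higher in the PERK-null line: 16 of 24 were called higher and 3 lower, with a median of 0.53 as fitted and 0.48 with floor genes at their bound. Hk2, hexokinase 2, stood at 23.3, 17.8 and 27.6 CPM in the WT libraries and 52.7, 48.7 and 68.6 CPM in the PERK-null libraries, a difference of 1.31 (SE 0.233, edgeR adjusted p 2.11e-05). Slc2a3, the glucose transporter GLUT3, stood at 0.171, 0.309 and 0.155 CPM in the WT libraries and 7.10, 7.03 and 6.54 CPM in the PERK-null libraries, a difference of 4.99 (SE 0.496, edgeR adjusted p 5.61e-10). Slc16a3 stood at 0, 0.0281 and 0.0310 CPM in the WT libraries and 1.53, 1.85 and 1.29 CPM in the PERK-null libraries, at least 17.8-fold higher, and encodes a lactate exporter. Slc2a1 (0.65), Hk1 (0.70) and Tpi1 (0.74), which overlaps Spsb2, were higher too. Ldhb (-1.13), Pkm (-0.28) and Gpi1 (-0.21) were the 3 lower. Several of the higher genes lie on chromosome 6, whose median was 0.32, and with each gene taken relative to its chromosome's median the list's median was 0.34. Pkm lies on chromosome 9 (median -0.45) and turned sign relative to it (0.17, edgeR adjusted p 0.171). Its call was also lost without WT replicate 1 or 2 or PERK-null replicate 3, and that of Gpi1 without any of 5 single libraries (smallest difference -0.16, edgeR adjusted p 0.178).

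Nuclear genes of the mitochondrial respiratory chain held 16 higher and 10 lower of 68, none by 2-fold, with a median of 0.09 (from 0.012 without PERK-null replicate 2 to 0.14 without WT replicate 2); 50.6% of all autosomal genes were called and 38.2% of these. Ndufv1, a core subunit of complex I, stood at 165, 155 and 164 CPM in the WT libraries and 279.8, 302 and 304 CPM in the PERK-null libraries, a difference of 0.87 (SE 0.0772, edgeR adjusted p 4.37e-11). Uqcrc1, of complex III, stood at 564, 521 and 517 CPM in the WT libraries and 292, 316 and 318 CPM in the PERK-null libraries, a difference of -0.79 (SE 0.0887, edgeR adjusted p 6.79e-09). Neither overlapped. Ndufv1 lies on chromosome 19 and Uqcrc1 on chromosome 9, the chromosomes with the highest and the lowest median, and relative to those medians they differed by 0.41 and -0.34, both still called. Cox7a2 (-0.89), also on chromosome 9, was then not called (-0.44, edgeR adjusted p 0.0741). Of mitochondrial proteostasis and dynamics genes, 14 of 29 were called higher and 6 lower, with a median of 0.27. Htra2, an intermembrane space protease whose gene overlaps Aup1 and Loxl3, stood at 102, 104 and 95.4 CPM in the WT libraries and 189, 225 and 199 CPM in the PERK-null libraries, a difference of 1.03 (SE 0.105, edgeR adjusted p 1.09e-09). Mfn1 (0.95), of mitochondrial fusion, and the proteases Lonp1 (0.50) and Clpp (0.51) were higher. Pink1 (-0.49), Mff (-0.38) and Fis1 (-0.36), of mitophagy and fission, were lower. Mtfp1, also of fission, was the largest rise of the list (1.51), so fission genes went both ways. The call of Fis1 was lost without any of 4 single libraries (smallest difference -0.28, edgeR adjusted p 0.163), and that of Mff without WT replicate 2 (-0.27, edgeR adjusted p 0.0738).

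Slc25a13 belongs to no list but is mitochondrial and among the 10 largest rises ranked below. Slc25a13, the aspartate-glutamate carrier citrin, stood at 1.54, 1.60 and 0.712 CPM in the WT libraries and 93.9, 88.0 and 98.0 CPM in the PERK-null libraries, a difference of 6.17 (SE 0.217, edgeR adjusted p 8.78e-21). Sterol and fatty acid synthesis genes leaned lower: 1 of 33 were called higher and 16 lower, with a median of -0.35. Insig1, a sterol sensor partner, stood at 88.0, 96.6 and 90.4 CPM in the WT libraries and 41.9, 46.7 and 48.1 CPM in the PERK-null libraries, a difference of -1.01 (SE 0.193, edgeR adjusted p 5.79e-05), and Sc5d (-0.86) and Lpin1 (-1.23) were lower. Srebf2 (0.14) was not called. Pmvk (0.39) was the 1 gene higher, and it was not called without WT replicate 1 or 3 or PERK-null replicate 2 or 3 (smallest difference 0.32, edgeR adjusted p 0.128). NRF2 targets and glutathione S-transferases were called 11 higher and 14 lower of 38, with a median of -0.19 as fitted and -0.28 with floor genes at their bound. With 1 library left out it ran from -0.35 without PERK-null replicate 1 to 0 without PERK-null replicate 2 or 3, as fitted. Nfe2l2, the gene of NRF2 itself, stood at 167, 161 and 178 CPM in the WT libraries and 77.6, 70.8 and 71.2 CPM in the PERK-null libraries, a difference of -1.20 (SE 0.0893, edgeR adjusted p 7.46e-13). Its targets Nqo1 (-1.37), Txnrd1 (-0.82) and Gclc (-0.69) were lower and Gclm (1.12) and Gsr (0.39) higher, the last not without WT replicate 2 (0.36, edgeR adjusted p 0.0621). The glutathione S-transferase genes are close paralogs with uncertain counts.

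**Figure D4:**
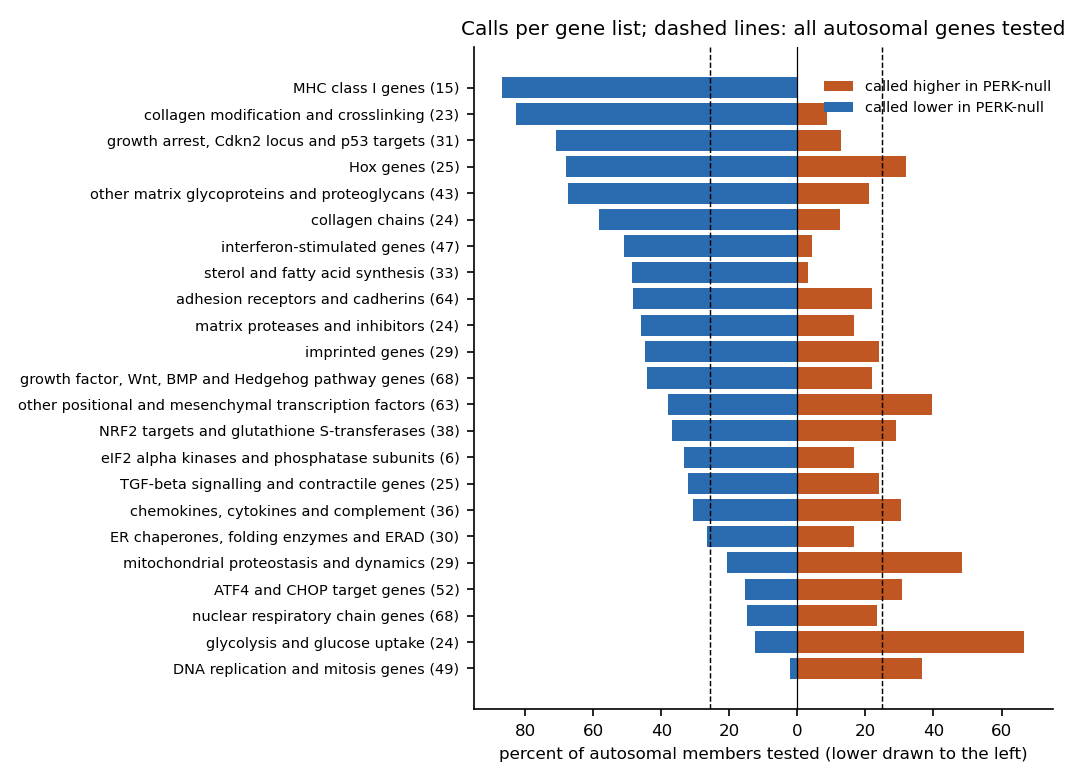
Bars give, for each of 23 gene lists, the percent of its autosomal members tested (number in brackets) that were called higher (orange, to the right) or lower (blue, to the left) in PERK-null libraries. The dashed lines mark the shares over all autosomal genes, 25.0% higher and 25.6% lower, and MHC class I genes, collagen modification genes and p53 targets reach farthest to the lower side.

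The largest differences were ranked among called genes averaging 2 or more on the log2 CPM scale, with more than 3 counts in every library. Genes whose groups overlapped were left out of this ranking. Its 10 largest rises were Crabp2, Slc25a13, Adamtsl3, Igf2bp3, Cdkn2a, Itgb7, Enpp2, Cxcl5, Kcnn4 and Fam132a, from 7.06 down to 4.52 on the log2 scale. Crabp2, a carrier of retinoic acid, stood at 0.400, 0.899 and 0.898 CPM in the WT libraries and 99.9, 99.4 and 93.4 CPM in the PERK-null libraries. Igf2bp3, an RNA-binding protein of embryonic cells, stood at 1.77, 1.07 and 1.18 CPM in the WT libraries and 75.3, 70.2 and 80.4 CPM in the PERK-null libraries. Enpp2, autotaxin, stood at 1.14, 0.618 and 0.681 CPM in the WT libraries and 24.2, 21.5 and 29.5 CPM in the PERK-null libraries. The 10 largest falls were Trim25, 9030617O03Rik, Thbs2, Gm36569, Fam198b, Cdh3, H2-K1, Impact, Pdzrn3 and Rims2, from -6.45 to -5.39, with Gm36569 overlapping Fam198b. Pdzrn3, a ubiquitin ligase, stood at 102, 101 and 121 CPM in the WT libraries and 1.99, 2.78 and 2.72 CPM in the PERK-null libraries. That none of these 20 genes had overlapping groups was fixed by the ranking rule. Each was called in the same direction in the other 5 treatments.

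Part of the difference between the lines was shared by whole chromosomes. Over the 9730 autosomal genes averaging 2 or more on the log2 CPM scale, whose median was 0.02, the median log2 difference was 0.46 on chromosome 19, 0.42 on chromosome 3 and 0.32 on chromosome 6, and -0.45 on chromosome 9, -0.31 on chromosome 10 and -0.29 on chromosome 1. On chromosome 19, 83.7% of 363 genes lay above 0 and 63.9% were called higher, against 27.1% over all of these genes. On chromosome 9, 13.9% of 563 genes lay above 0 and 64.1% were called lower, against 25.9%. As linear ratios these medians are 1.38 and 0.731. The shift ran along the chromosomes: in runs of 50 neighbouring genes, all 7 runs of chromosome 19 had a median between 0.38 and 0.53, and all 11 of chromosome 9 between -0.52 and -0.33. On chromosomes 1, 3, 5, 6, 9, 10, 12, 13, 17, 18 and 19 every run had the same sign, whereas on chromosome 2 the runs ran from -0.26 to 0.50, and on chromosome 14 from -0.36 to 0.15.

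Similar medians were found in libraries of the other treatments, which share no library with the DMSO comparison but are the same lines in the same fit. Across those 5 comparisons the median of chromosome 19 was 0.40 to 0.52, that of chromosome 3 was 0.38 to 0.43, and that of chromosome 9 was -0.47 to -0.38. DNA was not measured.

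**Figure D5:**
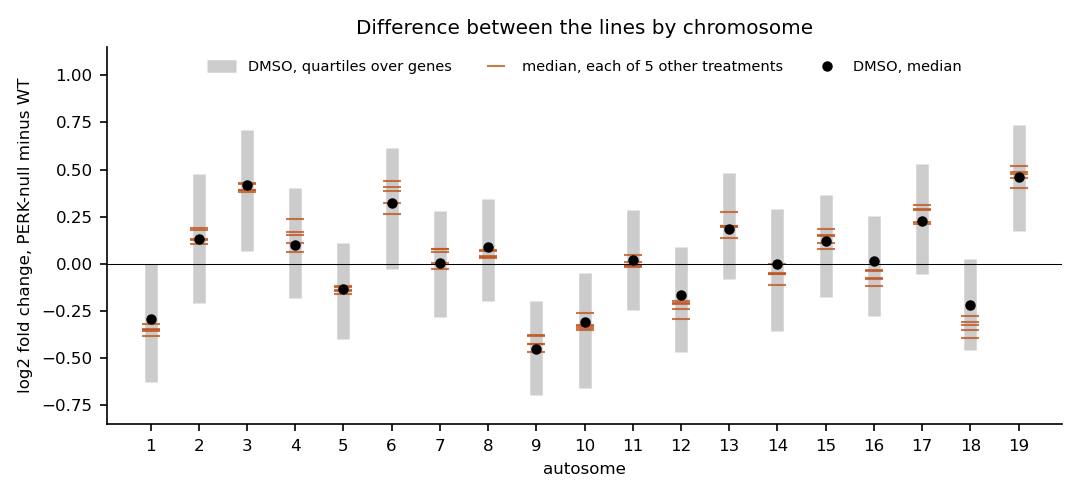
The median log2 fold change of PERK-null minus WT libraries is shown for each autosome in DMSO (black points, grey bars for the quartiles over genes averaging 2 or more on the log2 CPM scale) and in each of the 5 other treatments (orange ticks). Chromosomes 2, 3, 4, 6, 8, 13, 15, 17 and 19 lie above 0 and chromosomes 1, 5, 9, 10, 12 and 18 below 0 in all 6 treatments.

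Most, not all, of the untreated difference was met again under treatment. Of the 7317 genes called in DMSO, 81.2% were called in the same direction with BtdCPU, 68.7% with halofuginone, 68.7% with BtdCPU and Tg, 67.4% with halofuginone and Tg and 63.3% with Tg. Of all autosomal genes, the shares called in either direction in these comparisons were 54.1%, 67.1%, 61.3%, 63.1% and 66.7%. The sign and the call were the same in all 5 comparisons for 3181 genes (43.5%), and for 1760 of the 2993 called with at least 2-fold (58.8%). Opposite calls were made for 12.2% of the DMSO calls with Tg and for 0.178% with BtdCPU. Cdkn2a, Trp53, H2-K1, Thbs2, Fbn1 and Impact were called in the same direction in all 5. Atf4 and Atf3 were called in the same direction in none: Atf4 differed by -0.97 to 0.13 and Atf3 by -4.21 to -0.80 across them.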

How the data were processed

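Libraries of MEF RNA, purified with a Zymo Quick-RNA kit and made strand-specific for DNBSEQ sequencing per the labels' protocols, were deposited as 1 table of estimated counts per gene. The submitters' processing notes name GRCm39 and DESeq. The aligner, the counter and the strand setting are not given in the sources used here. In the deposited estimated counts 0.025 stands in 50.6% of values, where no count was read, and it was set to 0. Of the other values 2.69% were not whole, and they were rounded. Entries named by a number (27, holding 0.206% to 0.278% of each library) were left out, and 86 entries that share a symbol were summed to 39. Chromosome and gene order came from RefSeq annotation of GRCm38.p6, matched by symbol (29175 current and 1303 older), with no coordinates mixed between builds. Of genes tested, 481 on X, 4 on Y, 31 mitochondrial and 1089 unplaced ones stayed outside the autosomal comparison.

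All 36 libraries entered 1 fit of 12 group means (edgeR 4.0.16, R 4.3.3: filterByExpr, TMM, robust quasi-likelihood, 24 residual degrees of freedom, common dispersion 0.0199), and PERK-null minus WT in DMSO was tested with Benjamini-Hochberg adjustment over 16065 genes. CPM use TMM-scaled library sizes, are not corrected for length and are compared within a gene only. A library with 3 counts or fewer is at the floor, and bounds against the floor and counts cover counting error only. On simulated counts (15885 genes) the fit for this comparison recovered 72% of 100 genes changed 2-fold and 97% of 100 changed 4-fold, and called 8 of 15685 unchanged genes. In that simulation all other genes were equal between the lines, and the spread was taken from this fit. In the data 50.6% of autosomal genes were called and whole chromosomes shifted, so these are not error rates of the comparison itself. Python 3.11.15 and, as an alternative, DESeq2 1.42.0 were used.

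The members and lists were chosen with earlier results of these data known. Genes named by rule were the PERK, eIF2 kinase, Hspa5, Dnajb9 and stress response genes given first, the 10 largest rises and falls (averaging 2 or more on the log2 CPM scale, groups not overlapping, more than 3 counts in each library of the lower line), the 5 highest genes read in 1 line only per line, up to 3 largest rises and 3 largest falls called per list, 5 neighbours on each side of Eif2ak3, and list members with an opposite call elsewhere. Other list members named were chosen after their values were seen. Alternatives covered scaling, test, filter, libraries in the fit, the replicate number as a block, each library left out and, added after seeing the data, each gene relative to its chromosome's median. Some genes are not reported here, though they stay in the fits and in the counts over lists.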

Additional observations from a re-analysis of the deposited data

Results flagged for a closer look

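The genes examined were those chosen by the naming rule and the further genes named above, without Cebpa, Col2a1 and Tpm1. There were 283 with more than 3 counts in some library of each line. For 38 of them the PERK-null minus WT difference was called with the opposite sign in at least 1 other treatment, and edgeR's test of the change in difference (an interaction term) was passed as well. This held for 32 with Tg, 13 with BtdCPU and Tg, 9 with halofuginone, 8 with halofuginone and Tg and 3 with BtdCPU, and for 14 genes in more than 1 treatment. Of all 7317 autosomal DMSO calls, 12.2%, 5.34%, 7.45%, 5.90% and 0.178% were opposite in the same order, without the interaction test. Some genes were named for an opposite call elsewhere, so nothing is read from these counts. Each of the 38 is given in the treatment with its largest change among those where it was opposite, with adjusted p of the interaction from 2.63e-13 to 0.000769. Log2 differences are given in DMSO first and in the treatment second, over 3 libraries per group.

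With Tg, 10 genes of the integrated stress response that were higher in the untreated PERK-null line were lower in the treated one. Atf3 went from 1.18 to -4.21, a change of -5.39 (SE 0.343). Atf4 went from 0.69 to -0.97, a change of -1.66 (SE 0.152). Ddit3 went from 0.61 to -2.85, a change of -3.46 (SE 0.302). Ppp1r15a went from 0.95 to -2.98, a change of -3.93 (SE 0.313). Asns went from 0.95 to -0.88, a change of -1.83 (SE 0.147). Stc2 went from 1.93 to -1.87, a change of -3.80 (SE 0.294). Aldh18a1 went from 0.79 to -0.74, a change of -1.53 (SE 0.156). Got1 went from 0.83 to -1.47, a change of -2.30 (SE 0.179). Mthfd2 went from 0.55 to -1.02, a change of -1.56 (SE 0.162). Sars went from 0.78 to -0.60, a change of -1.38 (SE 0.162).

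The ER genes Creld2 and Syvn1 and the mitochondrial proteases Clpp and Lonp1 did the same. Creld2 went from 0.75 to -1.17, a change of -1.92 (SE 0.205). Syvn1 went from 0.50 to -0.62, a change of -1.13 (SE 0.207). Clpp went from 0.51 to -0.27, a change of -0.78 (SE 0.165). Lonp1 went from 0.50 to -0.81, a change of -1.31 (SE 0.164). So did Hk2, Mmp13 and Snai2. Hk2 went from 1.31 to -1.69, a change of -3.00 (SE 0.330). Mmp13 went from 3.45 to -2.69, a change of -6.14 (SE 0.644). Snai2 went from 0.50 to -2.44, a change of -2.94 (SE 0.273).

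In the other direction with Tg stood Aspn, Col6a1, Col6a2, Cox7a2, Cxcl12, Cyp1b1, Gpi1, Pkm, Snai1, Sox9, Tgfb3, Tgfbi, Tgfbr2 and Tgfbr3, which were lower in the untreated PERK-null line; Aspn, Cyp1b1 and Tgfbi are among the genes of the naming rule only. Aspn went from -2.24 to 0.59, a change of 2.84 (SE 0.363). Col6a1 went from -1.22 to 0.83, a change of 2.04 (SE 0.130). Col6a2 went from -1.11 to 0.38, a change of 1.49 (SE 0.128). Cox7a2 went from -0.89 to 0.69, a change of 1.58 (SE 0.285). Cxcl12 went from -0.80 to 1.17, a change of 1.97 (SE 0.253). Cyp1b1 went from -2.01 to 0.45, a change of 2.46 (SE 0.268). Gpi1 went from -0.21 to 0.36, a change of 0.57 (SE 0.124). Pkm went from -0.28 to 0.35, a change of 0.63 (SE 0.144). Snai1 went from -0.87 to 0.60, a change of 1.47 (SE 0.279). Sox9 went from -0.79 to 0.57, a change of 1.36 (SE 0.229). Tgfb3 went from -1.01 to 1.55, a change of 2.56 (SE 0.270). Tgfbi went from -1.44 to 0.71, a change of 2.15 (SE 0.229). Tgfbr2 went from -0.52 to 1.22, a change of 1.74 (SE 0.289). Tgfbr3 went from -0.38 to 1.56, a change of 1.94 (SE 0.174).

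The largest change was with halofuginone for Adamts5, Gli1 and Peg10. Adamts5 went from 0.76 to -0.99, a change of -1.75 (SE 0.370). Gli1 went from 1.77 to -0.79, a change of -2.55 (SE 0.498). Peg10 went from 2.12 to -0.86, a change of -2.98 (SE 0.178). The largest change was with BtdCPU and Tg for C3 and Cxcl1. C3 went from 1.76 to -0.90, a change of -2.66 (SE 0.497). Cxcl1 went from 2.01 to -2.63, a change of -4.64 (SE 0.619). The largest change was with halofuginone and Tg for Krt8 and Pink1. Krt8 went from 2.34 to -3.44, a change of -5.78 (SE 0.850). Pink1 went from -0.49 to 0.83, a change of 1.32 (SE 0.179).

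Outside the autosomal comparison, Xist, the noncoding RNA of X inactivation, had a mean of 485 CPM (SD 28.6, n = 3) in PERK-null libraries and 0 counts in each WT library. The Y-linked Ddx3y, Eif2s3y, Kdm5d and Uty stood at means of 99.0, 82.5, 38.0 and 35.8 CPM in WT libraries and had 0 or 1 count in each PERK-null library. All 6 libraries fell with their genotype label in these genes.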

How the results depend on the processing

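Of 332 genes named, 251 kept their direction and their side of the threshold under every alternative run. For 57 a call was lost or gained in at least 1. The 332 genes leave out Cebpa, Col2a1 and Tpm1. The sign turned in at least 1 alternative for 2 of the 284 genes called, Pkm and Pmvk, and for 30 of those not called. With DESeq2's size factors these were Eif2ak1 -0.0049, Ifit2 -0.0032 and Rpl34-ps1 -0.0046. With library size only these were Adm2 0.00054, Col1a2 0.013, Copg2 0.029, Igf2r 0.013, Thbs1 0.037 and Zeb1 0.023. With the DESeq2 Wald test these were Eif2ak1 -0.0045, Ifit2 -0.0031 and Rpl34-ps1 -0.0044. Without the filter these were Cdkn2b -0.018, Eif2ak1 -0.030, Ifit2 -0.030, Pcna -0.016 and Rpl34-ps1 -0.032. With only the 6 DMSO libraries these were Eif2ak1 -0.0046, Ifit2 -0.0039 and Rpl34-ps1 -0.0064. With the replicate block over 6 libraries these were Eif2ak1 -0.0023 and Ifit2 -0.00071. Relative to the chromosome median these were Acta2 -0.16, Cdkn2b -0.078, Eif2ak4 -0.087, Gadd45a -0.24, Gnas -0.033, H2-T22 -0.037, Ifit2 -0.45, Lox 0.12, Pcna -0.11, Pkm 0.17, Pmvk -0.030, Rpl34-ps1 -0.32, Runx2 -0.067, Serbp1 -0.10, Tagln 0.17 and Zeb1 0.18. With 1 library left out the ranges that cross 0 were Adm2 -0.80 to 0.37, Cd44 -0.014 to 0.27, Cdkn2b -0.048 to 0.12, Col1a2 -0.13 to 0.033, Copg2 -0.058 to 0.0030, Dnajb9 -0.025 to 0.27, Eif2ak1 -0.037 to 0.079, Eif2ak4 -0.016 to 0.12, Gadd45a -0.047 to 0.17, Gdf15 -1.004 to 3.81, Gm1070 -0.95 to 0.037, Ifit2 -0.075 to 0.10, Igf2r -0.15 to 0.15, Il12rb2 -0.10 to 0.98, Lox -0.19 to 0.015, Mki67 -0.25 to 0.048, Nr2f1 -0.13 to 0.0096, Pcna -0.094 to 0.11, Rpl34-ps1 -0.16 to 0.16, Rtl1 -0.13 to 0.37, Sgce -0.13 to 0.031, Tagln -0.52 to 0.045, Thbs1 -0.27 to 0.13, Trib3 -0.10 to 0.68 and Zeb1 -0.12 to 0.059. The number of genes called, either direction, was 7317 in the fit described, 7301 with DESeq2's size factors, 7353 with library size only, 7451 with the DESeq2 Wald test, 7086 without the filter, 6923 with only the 6 DMSO libraries, 6568 to 6773 with 1 library left out and 6476 relative to chromosome medians, where 5624 genes were called in both. The labels do not say whether replicate numbers pair the libraries, and the fit described has no replicate block. Deviations of libraries with the same number correlated at -0.01, 0.14 and 0.13, and 2 of 3 WT libraries correlated best with their own number. With the replicate number as a block, 8205 genes were called over 36 libraries and 8159 over 6, against 7317 and 6923 without it. What libraries of the same number share was not tested.

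Of 23 list medians, 16 stayed within the spread between replicates and 3 changed sign in at least 1 alternative; the cause was not tested. With library size only, the median of all autosomal genes shifted by 0.06. Under it the medians were -0.048 for eIF2 alpha kinases and phosphatase subunits, -0.76 for collagen chains and 0.32 for mitochondrial proteostasis. The median of collagen chains was -0.67 with DESeq2, -0.70 without the filter, -0.94 with only 6 libraries (-0.95 with the replicate block), -0.67 relative to chromosome medians and -0.95 to -0.68 with 1 library left out. The median of Hox genes was -3.58 with DESeq2, -3.96 without the filter, -7.71 with only 6 libraries (-7.70 with the replicate block), -7.49 relative to chromosome medians and -7.05 to -6.24 with 1 library left out. Chemokines had -0.16 with only 6 libraries and -0.17 with the replicate block. NRF2 targets had 0 with DESeq2 and without the filter, and -0.35 to 0 with 1 library left out. Glycolysis had 0.34 relative to chromosome medians, and mitochondrial proteostasis 0.21 to 0.30 with 1 library left out.

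Of 19 chromosome medians 4 stayed within the spread and 2 changed sign. With library size only the medians were 0.19 on chromosome 2, 0.48 on 3, 0.15 on 4, -0.073 on 5, 0.38 on 6, 0.063 on 7, 0.15 on 8, -0.25 on 10, 0.076 on 11, -0.11 on 12, 0.24 on 13, 0.061 on 14, 0.073 on 16, 0.28 on 17 and 0.52 on 19. Over all autosomal genes tested chromosome 6 had 0.31. With 1 library left out the median was 0.089 to 0.12 on chromosome 4, -0.16 to -0.11 on 5, 0.30 to 0.32 on 6 and 0.42 to 0.47 on 19. Genes read in WT libraries only fell from 252 to 151 with at least 30 counts and to 143 with 0 counts in the other line, and those in PERK-null libraries only from 96 to 48 and 49. Depth limits the last: near the floor a gene is below detection, not shown to be absent.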

Other observations

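Over 305 X-linked genes averaging 2 or more on the log2 CPM scale, the median log2 difference of PERK-null minus WT libraries was 0.01, beside medians from -0.45 to 0.46 on the autosomes. Of the 843 autosomal list genes tested, 541 were called in DMSO, beside 7317 of all 14460 autosomal genes (50.6%). For 100 of the 541 an opposite difference was called in at least 1 other treatment. Over all 7317 the opposite calls ran from 0.178% with BtdCPU to 12.2% with Tg, and a share over any treatment is not given. The lists were chosen with earlier results of these data known, so nothing is read from these counts.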
